A study of Homo sapiens with 6 samples.

Results

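Ion channel genes were analysed in PC3 cells with and without overexpression of GCNT1. The members were all protein-coding genes of the count table with a symbol starting with KCN, CACN, CLCN, CLIC, TRPC, TRPM, TRPV, PIEZO, ORAI, ANO and a digit, SCN and a digit, or P2RX, and they numbered 72 of 12703 genes. With ORAI1 counted in, RefSeq holds 195 protein-coding genes with such symbols, and the other 123 were not analysed here. ORAI1 was kept as protein-coding from GENCODE, since RefSeq types it otherwise on this assembly, and TRPC4AP was kept by its symbol although it encodes a protein that binds a channel. PC3 is an established human prostate cancer line derived from a bone metastasis. The control group was 3 biological replicates of PC3 cells stably transduced with Lenti-ORF control particles, and the GCNT1 overexpression group was 3 of cells stably transduced with particles carrying GCNT1, the glycosyltransferase that makes core 2 O-glycans. Both groups therefore carried a lentivirus, both came from 1 parental line, and each replicate gave 1 stranded mRNA library. The comparison asks which genes change when GCNT1 is upregulated.

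Ion channels are membrane proteins that open a pore for potassium, calcium, sodium or chloride, in response to voltage, calcium, stretch, temperature or a ligand. Potassium channels set the resting membrane potential and with it the driving force for calcium entry. Voltage-gated calcium channels, ORAI and TRP channels let calcium into the cell, and pore-forming subunits often work with auxiliary subunits that change gating or transport to the surface. In prostate cancer cells, which are not excitable in the way of neurons, channels are known for roles in volume regulation, migration and proliferation.

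Total counts were between 11392213 and 13825704 per library. GCNT1 had 9, 13 and 8 reads in controls against 13, 16 and 35 in overexpressing cells (log2 fold change 0.98, standard error 0.37, adjusted p = 0.0362), and its adjusted p was 0.0821 under DESeq2 and 0.269 without GCNT1 overexpression replicate 3, where the log2 fold change was 0.49. It was also 0.0920 without control replicate 1 and 0.0944 without control replicate 3. The groups separated along the first principal component, with 89.3% of the variance of log2 CPM, the TMM-normalised reads of a gene per 1e+06 reads of its library. GCNT1 overexpression replicate 1 lay below the other overexpressing libraries in genes with long transcripts, with a median log2 difference of -0.10 over genes longer than 4488 bp and -0.18 over the 37 channel genes among them. All 5 epithelial markers were tested, with a summed level of 822 to 869 CPM in controls and 626 to 710 CPM with overexpression, and 2 were called lower, KRT19 (log2 fold change -0.68) and CDH1 (log2 fold change -1.71), whereas KLK2, KLK3, FOLH1 and ACP3 of 7 luminal prostate markers were not among the genes tested. Of the luminal list 2 genes were tested, both called lower, with summed levels of 7.53 to 8.98 CPM in controls and 3.98 to 4.61 CPM with overexpression. Of the lists for other cell types, 2 of 7 fibroblast markers were tested (summed 126 to 178 CPM in controls, 43.0 to 46.7 CPM with overexpression), 2 of 5 endothelial markers (148 to 166 CPM and 47.7 to 63.4 CPM, with KDR lower and PECAM1 higher), 1 of 6 leukocyte markers (83.4 to 94.4 CPM and 80.0 to 89.5 CPM) and 1 of 7 neuroendocrine markers (2.70 to 3.47 CPM and 1.12 to 1.89 CPM). All tested markers of the fibroblast, endothelial and neuroendocrine lists were called, DCN, LUM, CDH5, VWF, PTPRC, CD3E and CHGA were among the markers not tested, and the part of these markers in the results on channels was not tested.

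A gene was called when its adjusted p was under 0.05 and its absolute log2 fold change was over 0.58. Of the 72 channel genes 38 were called, 14 higher and 24 lower in GCNT1 overexpressing cells, or 52.8% of the members. Over all genes 19.3% were called, 8.28% higher and 11.1% lower. Of the potassium channel genes 20 of 27 were called (5 higher, 15 lower), of the voltage-gated calcium channel genes 6 of 9 (1 higher, 5 lower) and of the remaining members 12 of 36 (8 higher, 4 lower). The falls were also the larger changes: 18 members fell by over 1 on the log2 scale and 6 rose by over 1, against 5.37% and 3.34% of all genes. With adjusted p alone 54 members passed, 25 higher and 29 lower, where 57.6% of all genes passed.

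Channel genes were low in these cells, with a median level of 7.80 CPM against 32.8 CPM over all genes, and low genes were called more often. Below 10 CPM 23 of 39 members were called, against 38.1% of all genes at such levels, and from 10 CPM 15 of 33 members were called, against 13.2% of all genes. The deposited table holds genes with at least 1.01 CPM in their 3 highest libraries. On that scale, CPM by total counts without TMM, no library of the lower group reached the level in 12 members, 9 lower and 3 higher. These genes were thus in the table only because they differed, and all 12 were called, as were 376 of the 387 such genes over the whole table. Among the 60 members that reached it in both groups, 26 were called (11 higher, 15 lower), against 16.9% of all such genes. They were 13 of 20 potassium channel genes, 2 of 5 voltage-gated calcium channel genes and 11 of 35 other members. In 58 of the 72 members the libraries of the groups did not overlap in CPM, against 62.5% of all genes. The 38 called members were all among them, and over all genes 2433 of the 2457 called did not overlap either. The exact permutation test of 3 libraries against 3 cannot give a p below 0.10, and the labels call the libraries biological replicates and the methods of the study speak of 3 stable cell lines in each group. Whether each line was transduced separately is not given in the sources used here, so p values measure the spread between these libraries.

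**Figure D1:**
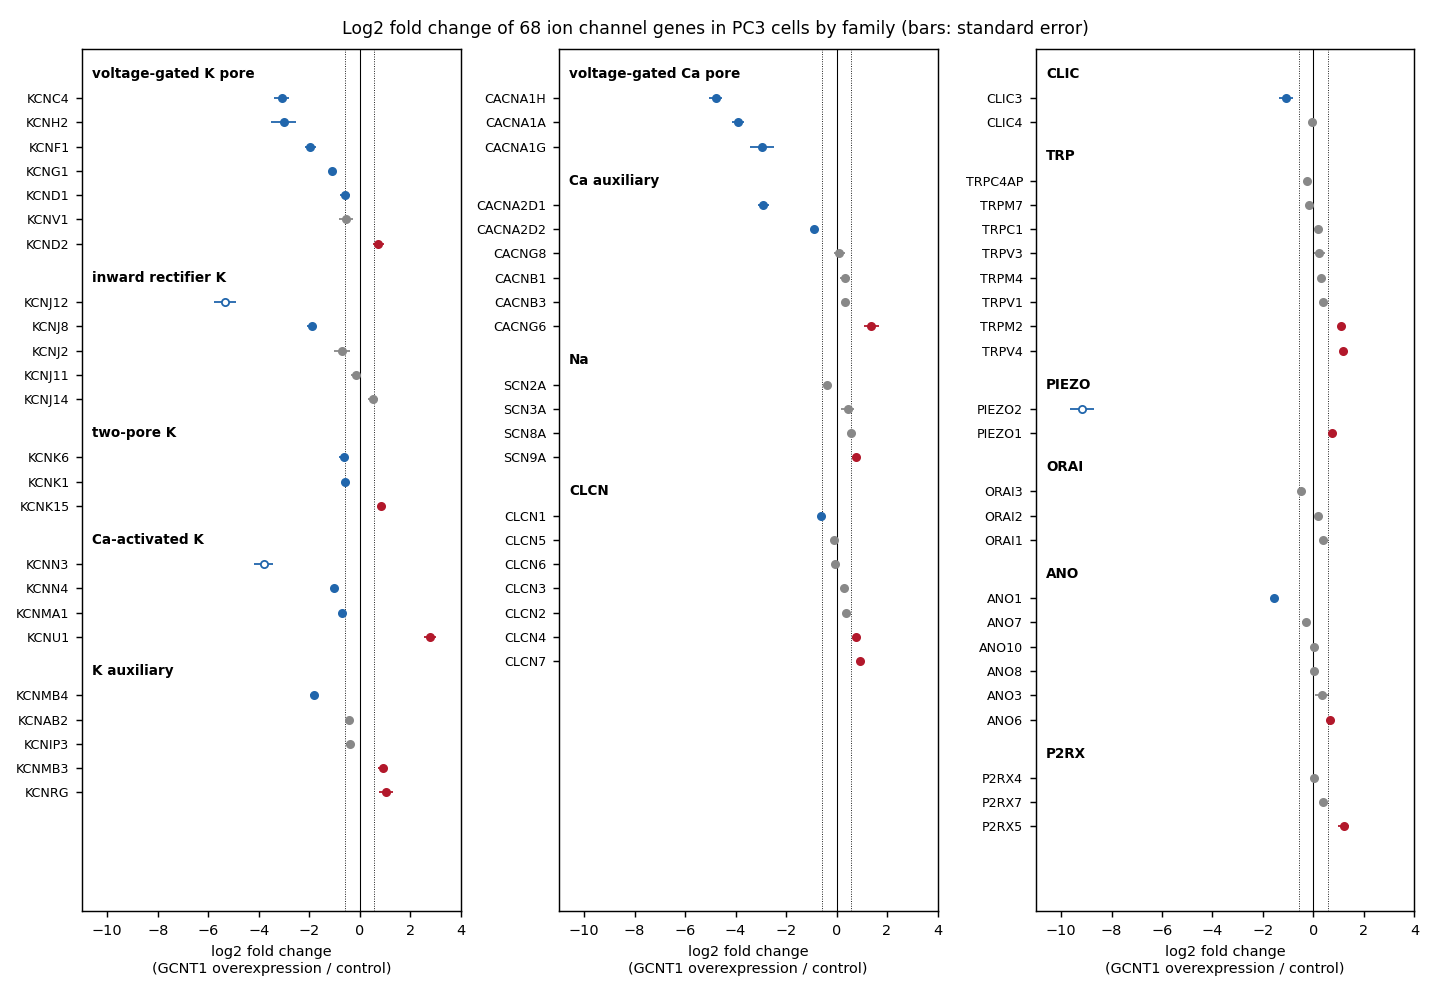
Log2 fold change of each of 68 channel genes (x axis, GCNT1 overexpression over control) by family, with its standard error as a bar; red points were called higher, blue points called lower, grey points were not called, and dotted lines mark 0.58. Open points are genes with 3 counts or fewer in every overexpressing library (PIEZO2, KCNJ12 and KCNN3), where a small prior count in edgeR sets the position. The voltage-gated calcium pore genes all lie left of the dotted lines. Most genes of the voltage-gated potassium pore family, which includes KCNF1 and KCNG1, also lie there, with KCND2 to the right. No TRP or sodium channel gene was called lower.

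**Figure D2:**
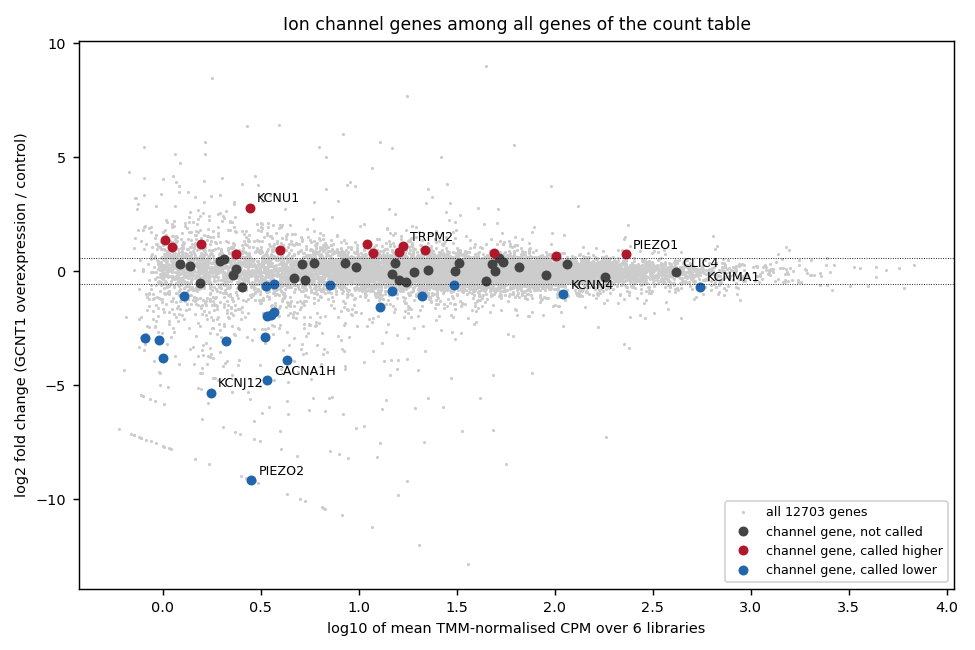
Log10 of the mean CPM over the 6 libraries (x axis) against the log2 fold change (y axis) for all 12703 genes in light grey and 68 channel genes in colour, with dotted lines at 0.58. The largest falls of channel genes lie at low levels, while KCNMA1, KCNN4 and PIEZO1 were called at high levels and CLIC4 lies near 0.

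Levels were compared between genes as CPM per kb of the canonical transcript. KCNMA1, which encodes the pore of the large-conductance calcium-activated potassium channel, had the highest level in controls, with 108, 112 and 105 CPM per kb. CLIC4, a chloride intracellular channel protein that also occurs as a soluble protein, followed with 103, 101 and 93.2 CPM per kb, close to but below the range of KCNMA1. KCNN4 (75.6 CPM per kb on average), TRPC4AP (61.6), ORAI1 (31.6) and PIEZO1 (21.3) came next, each with a range that did not meet that of its neighbour. KCNK1 (17.8) and P2RX4 (17.5) overlapped, as did ANO10 (15.6) and CLCN3 (15.6). In overexpressing cells the order at the top changed, with CLIC4 at 87.1, 99.6 and 99.7 CPM per kb above KCNMA1 at 61.3, 69.8 and 70.8 CPM per kb, followed by TRPC4AP at 50.6 to 53.7 CPM per kb. ORAI1 (37.7 to 47.7 CPM per kb) and KCNN4 (36.8 to 37.8 CPM per kb) overlapped there, and PIEZO1 (34.1 to 36.8 CPM per kb) came next. Of all CPM on KCN genes, KCNMA1 took between 62.9% and 66.6% in each of the 6 libraries. The summed CPM of the 72 members was 2672 to 2766 in controls and 2455 to 2578 with overexpression.

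**Figure D3:**
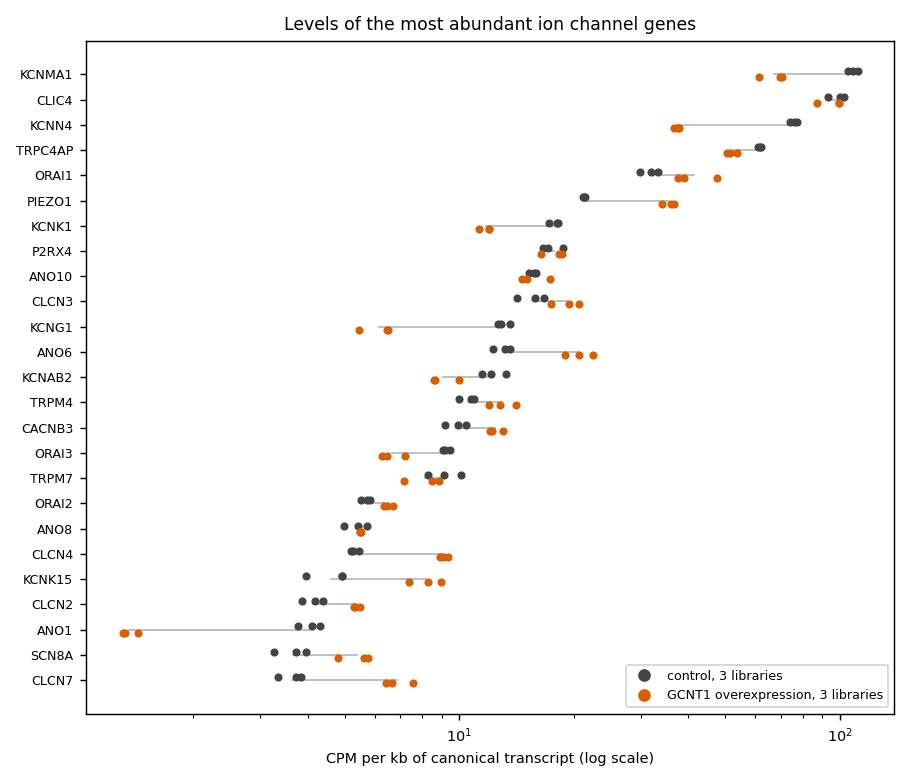
Level of 25 channel genes that rank among the top 25 in either group, as CPM per kb of canonical transcript on a log axis; dark points are the 3 control libraries, orange points the 3 overexpressing libraries, and a grey line joins the group means. KCNMA1, KCNN4, KCNG1 and ANO1 are lower with overexpression, and PIEZO1, ANO6, CLCN4, KCNK15 and CLCN7 are higher.

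Voltage-gated potassium channel genes other than auxiliary subunits were called more often lower than higher in GCNT1 overexpressing cells. Modifying subunits such as KCNF1 and KCNG1 were counted with them. Of 10 genes tested 7 fell, 1 rose and 2 were not called. Among the 7 that reached the filter level of the table in both groups, 4 fell, 1 rose and 2 were not called. KCNC4, a fast-activating Kv3 channel, fell from 47, 39 and 52 to 8, 4 and 5 counts (log2 fold change -3.09). KCNH2, the hERG channel of the cardiac action potential, fell from 16, 24 and 23 to 3, 5 and 0 counts (log2 fold change -3.01, standard error 0.50), with log2 fold changes of -2.40 without overexpression replicate 3 and -3.75 without replicate 2. Both genes were under the filter level of the table in every overexpressing library. KCNF1 and KCNG1 encode subunits that form no channel alone and modify other Kv channels, and both fell. KCNF1 went from 63, 61 and 76 to 18, 13 and 24 counts (log2 fold change -1.95), in a stretch of chromosome 2 whose 50 nearest tested genes had a median of -0.50 on that scale. KCNG1 went from 354, 344 and 352 to 165, 164 and 199 counts (log2 fold change -1.09), again without overlap between the groups.

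The A-type potassium channel genes KCND1 and KCND2 were called in opposite directions, and both calls depended on the libraries and the tool used. KCND1 had 62, 49 and 53 counts in controls and 31, 35 and 51 with overexpression (log2 fold change -0.58, adjusted p = 0.0147), and KCND2 had 22, 18 and 25 counts and 36, 47 and 33 counts (log2 fold change 0.74, adjusted p = 0.0133). KCND1 lost its call without overexpression replicate 1 (-0.53) or 2 (-0.47), without control replicate 1 (-0.50) or 3 (-0.58, at an adjusted p of 0.0327), with library size in place of TMM (-0.53) and under DESeq2 (adjusted p = 0.0513). KCND2 lost it without overexpression replicate 2 (adjusted p = 0.0573) or control replicate 2 (adjusted p = 0.0631) and under DESeq2 (adjusted p = 0.0515). KCNV1, with 17, 30 and 21 counts in controls and 16, 19 and 15 with overexpression, overlapped between the groups. KCNV1 was called in 1 alternative, without control replicate 1 (log2 fold change -0.71, adjusted p = 0.0436).

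Inward rectifiers, which hold the membrane near the potassium equilibrium, fell in 2 of 5 genes, where 11.1% of all genes were called lower. KCNJ12 was in the table through its controls alone, and among the 4 at the filter level in both groups 1 fell. KCNJ12 had 50, 40 and 37 reads in controls against 1, 0 and 2 in overexpressing cells, a ratio of 45.3 with an exact 95% interval of 15.1 to 222.5 that covers counting error only. KCNJ8, the pore of an ATP-sensitive channel, fell from 71, 66 and 71 to 20, 18 and 21 counts, a log2 fold change of -1.91 ± 0.18 (SE, adjusted p = 1.20e-06). KCNJ11, which encodes the other ATP-sensitive pore, had 29, 29 and 31 counts in controls and 25, 29 and 31 with overexpression and was not called (log2 fold change -0.16). KCNJ2 showed a split within the overexpressing group, with 8, 35 and 34 counts against 45, 34 and 38 in controls, and was not called (adjusted p = 0.0653). Without overexpression replicate 2 it was called, at a log2 fold change of -0.95 and an adjusted p of 0.0330. KCNJ14 passed adjusted p alone (log2 fold change 0.53, adjusted p = 0.0396) and passed the fold change threshold too without overexpression replicate 3 or with library size in place of TMM, where its highest log2 fold change was 0.61.

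Of the two-pore potassium channel genes, which carry background potassium current, KCNK1 and KCNK6 fell and KCNK15 rose. KCNK1 had 468, 468 and 419 reads in controls against 286, 320 and 349 in overexpressing cells (log2 fold change -0.60, standard error 0.07), and KCNK6 49, 51 and 51 and then 29, 32 and 43 times (log2 fold change -0.63). Both lie just over the fold change threshold and were not called with library size in place of TMM (-0.54 and -0.58) or without overexpression replicate 2 (-0.57 and -0.54). KCNK15 rose from 156, 124 and 146 to 260, 285 and 262 counts, a log2 fold change of 0.83 ± 0.11 (SE, adjusted p = 2.48e-05).

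All 4 genes for calcium-activated potassium channels and their Slo relatives were called, 3 lower and 1 higher, but KCNN3 and KCNU1 reached the filter level of the table in 1 group alone, which leaves 2 genes, KCNMA1 and KCNN4, both lower. KCNMA1, the most abundant of them, fell from 8532, 8697 and 7768 to 4442, 5999 and 6252 counts, from 678 ± 20.7 to 421 ± 32.5 CPM (SD, n = 3 each; log2 fold change -0.69, standard error 0.06, adjusted p = 3.08e-07). KCNN4, the intermediate-conductance channel, fell from 1863, 1803 and 1785 to 850, 989 and 1044 counts, from 148 ± 3.09 to 73.1 ± 1.03 CPM (SD, n = 3 each; log2 fold change -1.02, standard error 0.05, adjusted p = 2.56e-09). KCNN3, a small-conductance channel of the same family, fell from 23, 27 and 20 counts to 1, 2 and 2 counts, a ratio of 14.97 with an exact 95% interval of 6.12 to 47.5 that covers counting error only. KCNU1, known from sperm and gated by pH, went the other way, from 8, 7 and 11 to 46, 71 and 77 counts. Its log2 fold change of 2.78 ± 0.25 (SE, adjusted p = 7.71e-07) was the largest rise among the 72 members, and every control library was under the filter level of the table.

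The auxiliary subunits of the large-conductance channel split. KCNMB4 fell from 76, 68 and 69 to 19, 25 and 21 counts (log2 fold change -1.80, standard error 0.17), and KCNMB3 rose from 41, 32 and 29 to 61, 79 and 65 counts (log2 fold change 0.91, standard error 0.17). KCNMB3 overlaps PIK3CA on the opposite strand, a gene with 926 to 1104 counts per control library and a log2 fold change of 0.15, and whether the counting used strand is not given in the sources used here. KCNRG, a regulator of Kv channel assembly that shares its locus with TRIM13 on the same strand and DLEU2 on the other, rose from 7, 10 and 10 to 16, 18 and 26 counts (log2 fold change 1.04) and had an adjusted p of 0.0565 under DESeq2. KCNAB2 and KCNIP3 passed adjusted p alone, with log2 fold changes of -0.44 and -0.39. Counts on KCNRG are uncertain because of the shared locus, where TRIM13 had a log2 fold change of 0.48. Every control library of KCNRG was under the filter level of the table.

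KCNN3 and KCNN4 were called lower at different levels, and PIEZO1 and PIEZO2 were called in opposite directions, so the 250 bases before the RefSeq starts of these related genes are given here (GRCh38.p14, minus strand for all 4, written 5′ to 3′ with each CG dinucleotide in capitals). KCNN3 and KCNN4 come first, from chr1:154870282-154870531 and chr19:43780974-43781223. PIEZO1 and PIEZO2 follow, from chr16:88785221-88785470 and chr18:11149570-11149819. Start sites used in PC3 cells were not measured.
KCNN3: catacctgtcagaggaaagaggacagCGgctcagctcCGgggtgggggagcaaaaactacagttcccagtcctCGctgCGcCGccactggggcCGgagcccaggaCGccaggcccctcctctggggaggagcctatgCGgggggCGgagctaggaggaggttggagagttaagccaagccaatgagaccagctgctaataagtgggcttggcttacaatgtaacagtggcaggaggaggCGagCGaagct
KCNN4: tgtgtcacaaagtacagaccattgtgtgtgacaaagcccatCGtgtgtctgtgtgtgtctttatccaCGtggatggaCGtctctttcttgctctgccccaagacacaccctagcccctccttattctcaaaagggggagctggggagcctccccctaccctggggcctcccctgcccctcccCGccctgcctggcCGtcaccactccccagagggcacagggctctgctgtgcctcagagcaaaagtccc
PIEZO1: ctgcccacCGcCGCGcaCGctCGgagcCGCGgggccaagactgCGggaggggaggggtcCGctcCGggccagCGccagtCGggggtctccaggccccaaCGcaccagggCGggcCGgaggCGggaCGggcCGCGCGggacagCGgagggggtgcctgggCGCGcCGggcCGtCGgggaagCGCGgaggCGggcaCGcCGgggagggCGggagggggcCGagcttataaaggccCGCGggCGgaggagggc
PIEZO2: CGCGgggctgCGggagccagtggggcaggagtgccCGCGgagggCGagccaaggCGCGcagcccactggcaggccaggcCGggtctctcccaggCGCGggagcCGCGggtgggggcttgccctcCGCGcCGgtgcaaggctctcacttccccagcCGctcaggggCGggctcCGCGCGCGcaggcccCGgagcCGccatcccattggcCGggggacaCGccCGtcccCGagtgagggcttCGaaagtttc

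These windows held 11 CG dinucleotides for KCNN3 and 5 for KCNN4, and 36 for PIEZO1 and 29 for PIEZO2. Thus both PIEZO windows, 1 from a gene that rose and 1 from a gene at 0 counts in overexpressing cells, were rich in CG. Such a window was at hand for 53 of the 72 members. The median number of CG dinucleotides was 17 over the 17 members called lower, 16 over the 10 called higher and 23 over the 26 not called, against 21 over 10236 genes of the table. The motif GGGCGG, searched on both strands and itself holding a CG, was present in 14 of the 17, 5 of the 10 and 21 of the 26 windows, and in 67.9% of those of the table and 42.3% of all RefSeq windows. The motif TATAAA, also searched on both strands, was present in 2 of 17, 2 of 10 and 1 of 26, with PIEZO1 among them, and in 5.31% of those of the table and 11.1% of all. A match only says that the letters occur in the window.

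PIEZO1 and PIEZO2 encode the large mechanically activated cation channels, and both were called in opposite directions. PIEZO2, on chromosome 18 from 10670247 to 11149569, had 69, 72 and 68 reads in controls and none in any overexpressing library. PIEZO2 was thus in the table through its controls alone. Against a floor of 3 counts per library it was at least 24.7-fold lower (adjusted p = 3.37e-08), and a count of 0 allows up to that floor. PIEZO1, on chromosome 16 from 88715338 to 88785220, rose from 2180, 2146 and 2022 to 3370, 3792 and 4201 counts, from 172 ± 1.10 to 288 ± 11.1 CPM (SD, n = 3 each; log2 fold change 0.74, standard error 0.05, adjusted p = 2.55e-08). PIEZO1 was the more abundant gene in every library, with 21.1 to 21.4 CPM per kb in controls against 0.505 to 0.533 CPM per kb for PIEZO2. CTU2 overlaps PIEZO1 on the opposite strand and had a log2 fold change of 0.44, and the 50 tested genes nearest to PIEZO1 had a median of 0.29. Relative to that median PIEZO1 was 0.45 higher on the log2 scale, which is under the threshold.

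Among the voltage-gated calcium channel genes all 3 pore-forming genes tested were called lower. CACNA1A, the P/Q-type channel of presynaptic terminals, had 90, 94 and 114 reads in controls against 5, 6 and 10 in overexpressing cells (log2 fold change -3.90, standard error 0.24, adjusted p = 2.37e-08). CACNA1H and CACNA1G encode low-voltage-activated T-type channels. CACNA1H fell from 86, 79 and 77 to 1, 4 and 4 counts (log2 fold change -4.79, standard error 0.27, adjusted p = 8.53e-09), and CACNA1G from 18, 17 and 18 to 3, 4 and 0 counts (log2 fold change -2.95, standard error 0.48, adjusted p = 0.000169). Without overexpression replicate 3 the log2 fold change of CACNA1G was -2.34, and without replicate 2 it was -3.51. None of the 3 reached the filter level of the table in any overexpressing library, so that each was in the table through its controls alone. Their control levels were low, between 0.167 CPM per kb for CACNA1G and 0.938 CPM per kb for CACNA1A.

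Auxiliary calcium channel subunits were called in 3 of 6 genes, against 19.3% of all genes. Among the 5 at the filter level of the table in both groups 2 were called. The alpha2delta subunits, which bring the pore to the surface, both fell, CACNA2D1 from 87, 65 and 66 to 6, 11 and 14 counts (log2 fold change -2.90, standard error 0.23) and CACNA2D2 from 271, 225 and 212 to 121, 139 and 151 counts (log2 fold change -0.88, standard error 0.10). CACNA2D1 is thus within the low range of the pore genes and CACNA2D2 well above it. CACNG6, a gamma subunit, rose from 6, 8 and 7 to 17, 24 and 18 counts (log2 fold change 1.38, standard error 0.30, adjusted p = 0.00146). Every control library of CACNG6 was under the filter level, so it was in the table through the overexpressing libraries alone. CACNB3, the more abundant cytoplasmic beta subunit, had 28.8 ± 1.85 CPM in controls and 36.4 ± 1.63 CPM with overexpression (SD, n = 3 each) and passed adjusted p alone (log2 fold change 0.34). CACNB1 and CACNG8 had log2 fold changes of 0.32 and 0.11, with overlapping groups.

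**Figure D4:**
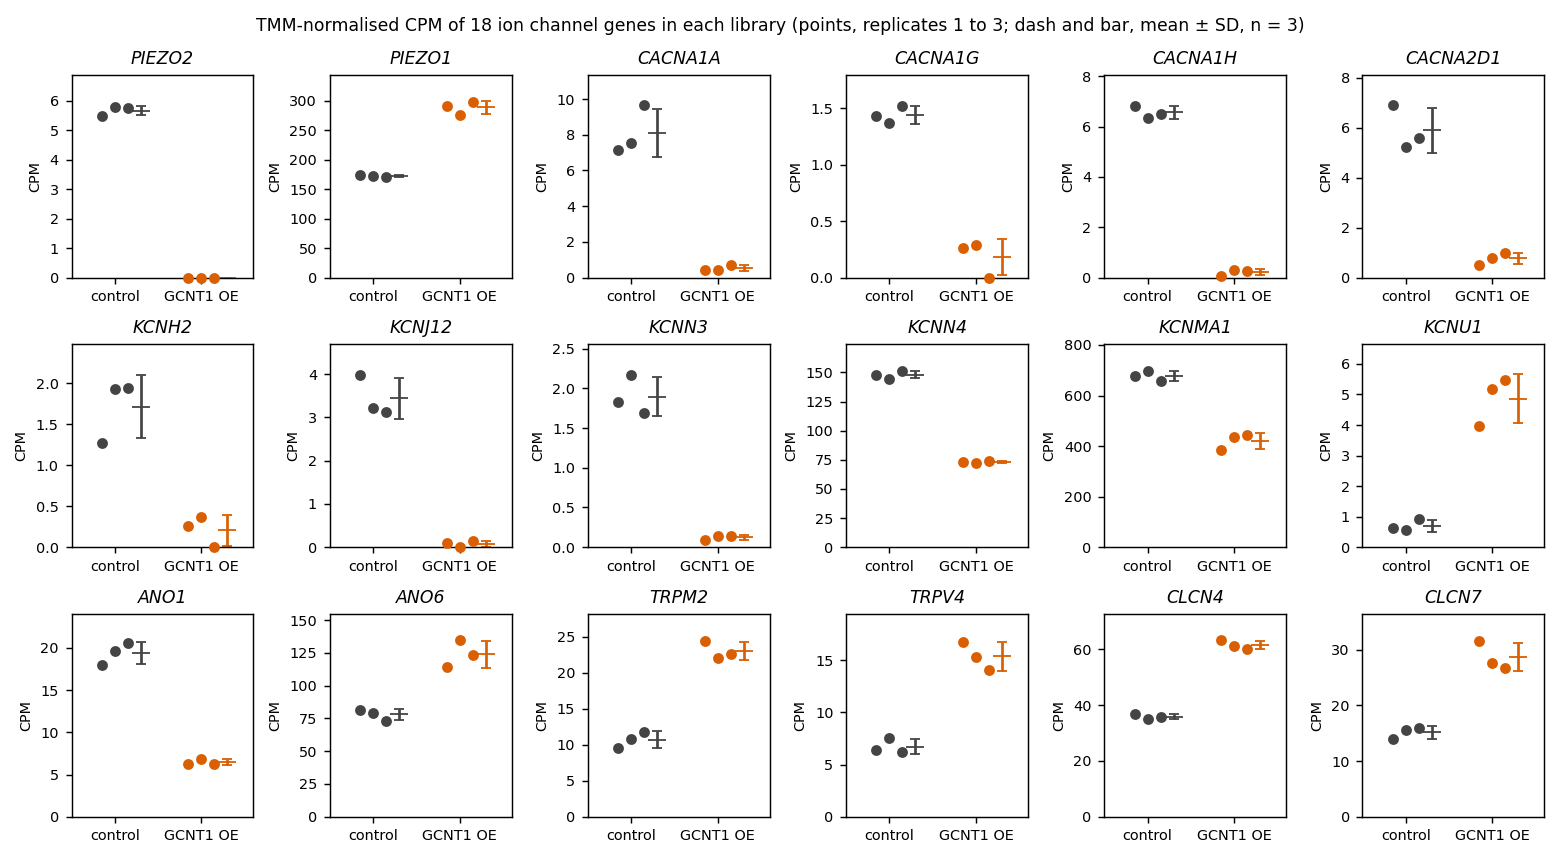
TMM-normalised CPM (y axis, from 0, a scale of its own in each panel) of 18 channel genes in the 3 control (dark) and 3 GCNT1 overexpressing (orange) libraries, with the mean and SD beside the points. PIEZO2, the calcium channel pores, KCNH2, KCNJ12 and KCNN3 lie near 0 with overexpression, PIEZO1, KCNU1, ANO6, TRPM2, TRPV4, CLCN4 and CLCN7 lie higher, and the groups do not overlap in any panel.

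Sodium channel genes, best known from excitable cells and also found in metastatic cancer lines, were higher in 1 gene by both thresholds. SCN9A, the pore Nav1.7, rose from 121, 109 and 92 to 139, 234 and 220 counts (log2 fold change 0.78, standard error 0.13, adjusted p = 0.000267), with overexpression replicate 1 nearest to the controls. SCN8A, the pore Nav1.6 and the most abundant by CPM, had 577, 536 and 444 counts and then 643, 915 and 916 counts. Its log2 fold change of 0.57 (adjusted p = 8.24e-05) lay just under the threshold and was over it without overexpression replicate 1 (0.64), without control replicate 1 (0.64) or 2 (0.58), and with library size in place of TMM (0.62). SCN2A passed adjusted p alone in the other direction (log2 fold change -0.39, adjusted p = 0.0174), and SCN3A, which overlaps SCN2A on the opposite strand, was not called (0.44).

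Chloride channels and exchangers of the CLCN family were called in 3 of 7 genes (42.9%, against 19.3% of all genes). CLCN7, the lysosomal chloride-proton exchanger, rose from 175, 193 and 189 to 365, 380 and 378 counts, from 15.1 ± 1.09 to 28.7 ± 2.53 CPM (SD, n = 3 each; log2 fold change 0.92, standard error 0.09, adjusted p = 2.11e-06). CLCN4, an exchanger of endosomes, rose from 465, 438 and 421 to 733, 840 and 850 counts (log2 fold change 0.78, standard error 0.06, adjusted p = 1.88e-07). CLCN1, the muscle chloride channel, had 98, 107 and 111 counts and then 66, 82 and 74 counts (log2 fold change -0.61) and fell below the threshold without overexpression replicate 3 (-0.55), without control replicate 3 (-0.54) and with library size in place of TMM (-0.55). CLCN2 and CLCN3 passed adjusted p alone, with log2 fold changes of 0.37 and 0.30, and CLCN5 and CLCN6 did not. Among the chloride intracellular channel genes CLIC3 fell from 20, 19 and 25 to 12, 11 and 9 counts (log2 fold change -1.09, adjusted p = 0.00485), although the 50 tested genes nearest to it had a median of 0.62. CLIC4, at 420 ± 21.4 CPM in controls and 406 ± 30.9 CPM with overexpression (SD, n = 3 each), was not called (log2 fold change -0.05, standard error 0.06).

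Anoctamins comprise calcium-activated chloride channels and phospholipid scramblases, and the best known of each kind moved apart. ANO1, the calcium-activated chloride channel TMEM16A, fell from 227, 244 and 243 to 72, 94 and 89 counts, from 19.4 ± 1.27 to 6.46 ± 0.337 CPM (SD, n = 3 each; log2 fold change -1.58, standard error 0.10, adjusted p = 2.96e-08). ANO6, the scramblase TMEM16F, rose from 1028, 986 and 868 to 1320, 1850 and 1744 counts (log2 fold change 0.67, standard error 0.07, adjusted p = 2.55e-06). Relative to the median of its 50 nearest tested genes (0.28) ANO6 was 0.39 higher. The other 4 anoctamins were not called, with log2 fold changes from -0.30 for ANO7 to 0.33 for ANO3.

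TRP channel genes were called in 2 of 8, against 19.3% of all genes, and both rose. TRPV4, an osmotically and mechanically sensitive calcium channel, rose from 81, 94 and 73 to 194, 210 and 198 counts (log2 fold change 1.18, standard error 0.12, adjusted p = 1.78e-06). TRPM2, a calcium-permeable channel opened by ADP-ribose under oxidative stress, rose from 121, 134 and 140 to 282, 303 and 320 counts (log2 fold change 1.10, standard error 0.10, adjusted p = 6.04e-07). TRPM2-AS on the opposite strand had 32, 28 and 31 counts in controls and 39, 57 and 75 with overexpression (log2 fold change 0.81), and the reads of the pair cannot be told apart if counting ignored strand. TRPM4 and TRPV1 passed adjusted p alone with log2 fold changes of 0.29 and 0.37, and TRPC4AP with -0.25. TRPM7, TRPC1 and TRPV3 did not pass it, with log2 fold changes of -0.17, 0.16 and 0.23.

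The ORAI genes, which encode the pore of store-operated calcium entry, were called in 0 of 3, but all 3 passed adjusted p alone in edgeR, and none of the other fits called any of them. ORAI1 had 562, 593 and 588 counts in controls and 826, 775 and 823 with overexpression (log2 fold change 0.39, standard error 0.09), ORAI2 a log2 fold change of 0.19 and ORAI3 one of -0.48, with 251, 259 and 239 and then 184, 195 and 195 counts. ORAI1 and ORAI3 thus lay on opposite sides of the controls, without overlap. Of the ATP-gated P2X receptor genes P2RX5 rose from 14, 11 and 10 to 25, 29 and 32 counts (log2 fold change 1.19, standard error 0.24, adjusted p = 0.000754), P2RX7 passed adjusted p alone (0.37), and P2RX4, the most abundant, was not called (0.02). P2RX5 shares its span with an annotated readthrough gene, P2RX5-TAX1BP3, so its counts are uncertain.

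Other genes of ion transport were counted from 4 lists written from general knowledge. Of 71 genes tested 17 were called (6 higher, 11 lower), or 23.9% against 19.3% of all genes. Among the 68 with a library at the filter level in both groups 14 were called (6 higher, 8 lower), against 16.9% of all such genes. The median absolute log2 fold change was 0.23, where it was 0.62 over the channel genes and 0.26 over all genes. The median level was 34.35 CPM over the 71 genes and 7.80 CPM over the channel genes. Of 34 channel genes with other symbols 7 were called (20.6%), 3 higher and 4 lower. ASIC2, an acid-sensing sodium channel, had 17, 27 and 20 reads in controls and none in any overexpressing library, at least 7.55-fold lower against the floor. It was in the table through its controls alone. The epithelial sodium channel subunits SCNN1B and SCNN1G fell by 2.10 and 1.91 on the log2 scale, BEST3 rose by 1.87, and TMC7 had the smallest p of the list (log2 fold change -0.75, from 34.8 ± 0.882 to 20.6 ± 1.79 CPM, SD, n = 3 each).

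Of 18 genes of calcium stores and mitochondrial uptake 3 were called (16.7%, against 19.3% of all genes). ITPR1, an IP3 receptor, fell from 1053, 1073 and 846 to 356, 549 and 574 counts (log2 fold change -1.11, standard error 0.10). ATP2A3, a calcium pump of the endoplasmic reticulum, fell from 32, 48 and 34 to 5, 10 and 6 counts. ATP2A3 was in the table through its controls alone. RYR2, a calcium release channel, rose from 19, 8 and 13 to 26, 65 and 55 counts. STIM1 and STIM2, the sensors that open ORAI channels, had log2 fold changes of -0.04 and 0.26, of which that of STIM2 passed adjusted p alone. Of 9 ion pump and exchanger genes 3 were called, or 33.3%. The sodium-calcium exchanger SLC8A1 of the plasma membrane fell (log2 fold change -1.83, adjusted p = 2.37e-08). SLC8B1, the mitochondrial sodium-calcium exchanger, and ATP1B1, a subunit of the sodium pump, rose by 0.66 and 0.82 on the log2 scale. Of 10 genes of calcineurin and NFAT, the phosphatase and transcription factors that respond to calcium, 4 were called lower, against 11.1% of all genes, and 2 passed adjusted p alone in the higher direction. NFATC1 fell by 1.39, RCAN3 by 0.63 and NFATC2 by 0.59 on the log2 scale, and RCAN2, with 30, 33 and 19 reads in controls, had none in the overexpressing libraries and was at least 9.62-fold lower against the floor. RCAN2 was in the table through its controls alone, and RCAN3 and NFATC2 were under the threshold relative to their 50 nearest tested genes (-0.47 and -0.40). PPP3CB, a catalytic subunit of calcineurin, had a log2 fold change of -0.5795, just under the threshold, and was not called.

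The called members lay on many chromosomes. When each change was set against the median of the 50 nearest tested genes, with the adjusted p kept, 35 members were past both thresholds, against 15.4% of all genes, and 34 of the 38 called members were among them. The exceptions were PIEZO1, ANO6, KCNK1 and KCNK6, and KCNJ14 was added. Of the 38 called members 20 overlap an annotated gene of the opposite strand in GENCODE 44, and in 6 of them that gene was itself tested.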

How the data were processed

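RNA from 3 control and 3 GCNT1 overexpressing replicates of PC3 cells was sequenced as single 75 bp reads from stranded mRNA libraries. In Galaxy the authors used Cutadapt for trimming, HISAT2 for mapping to hg38 and featureCounts for counting, and deposited raw read counts per gene, neither normalised nor pooled. The annotation, the strand setting and the filter on low counts are not given in the sources used here. Totals ranged from 11392213 to 13825704 per library, so that 3 counts, the floor used here, were 0.217 to 0.263 CPM; floors and intervals cover counting error only.

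The 12703 rows were matched by Entrez identifier to RefSeq (12661 with a symbol). All 72 members had a transcript length (GENCODE 44). Counts were tested in R 4.3.3 with edgeR 4.0.16 (filterByExpr, which kept every gene, TMM, quasi-likelihood F test of the groups, no block) and Benjamini-Hochberg adjustment over all genes, at the thresholds of the paper, an adjusted p of 0.05 and a log2 fold change of 0.58; the paper used limma-voom. Standard errors are the log2 fold change over the root of F. The test was checked on simulated data. Libraries of a group differed by more than sampling noise (chi-square per degree of freedom 1.65 to 5.61), so each counted as 1 sample.

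Alternatives were RLE factors, library size alone, no filter, at least 10 counts in every library, DESeq2 1.42.0, limma-voom (limma 3.58.1), glmTreat, the replicate block, each library left out, and fold changes relative to the 50 nearest tested genes. Members, families and lists were chosen with earlier results of these data known. Named genes were every called member, the most abundant member by CPM of each family, the gene with the smallest p in each list of other ion transport genes, and GCNT1; other genes in the text were chosen after their values were seen. A few genes, 4 members among them, are counted in all totals but not reported here by name or in the figures. The count of members at the filter level in both groups, the split at 10 CPM and the promoter windows were added after the data were seen. Sequences are from RefSeq (GRCh38.p14, which is hg38). The gene sets and protein data of the paper were not analysed here.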

Additional observations from a re-analysis of the deposited data

How the results depend on the processing

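Of the 38 called channel genes 32 were called under each alternative fit other than glmTreat that tested them, and all 38 kept their sign in those fits. KCND1, KCND2, KCNK1, KCNK6, CLCN1 and KCNRG lost the call in at least 1 of those fits, and 5 uncalled members gained one. limma-voom called 38 members, all 38 of them those of edgeR, and DESeq2 35, beside 2459 and 2312 genes in all. Leaving out each library in turn gave 36 to 39 called members, 14 to 15 of them higher and 22 to 24 lower, beside 2409 to 2511 genes in all. With at least 10 counts in every library 24 members were called, 13 of them lower, beside 1980 genes in all. That filter removes 15 members, 14 of them called, through their own low counts in 1 group. Members with a library at the filter level of the table in both groups, an alternative chosen after seeing the data, included 15 called lower. glmTreat against a log2 fold change of 0.58 called 1392 genes in all, 27 channel genes and 9 of them higher. With library size alone 17 members were called higher and 20 lower, as were 1283 and 1230 of all genes (51.1% of calls higher, against 42.8% with TMM), and the median log2 fold change of all genes moved to 0.06. GCNT1 had a log2 fold change of 0.98 in DESeq2, at an adjusted p of 0.0821, and 0.49 to 1.21 with each library left out; the cause was not tested. Same-numbered libraries of the groups did not deviate together (correlations from -0.27 to -0.0024), so the numbers do not pair the samples; with the replicate number as a block 38 channel genes were called, the same 38 genes, as well as 2423 genes in all, and 52 members passed adjusted p alone, and GCNT1 had a log2 fold change of 0.94. At these depths a member at 0 counts may have had up to 3 counts per library.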

Other observations

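Non-coding genes with such symbols were left out of the members and are given here as values. KCNQ1OT1, the long non-coding RNA of the KCNQ1 imprinted locus, had 60, 58 and 48 reads in controls against 34, 72 and 78 in overexpressing cells (log2 fold change 0.05, adjusted p = 0.863), with overexpression replicate 1 below and the other overexpressing libraries at or above the controls. KCNJ5-AS1 had 41, 28 and 32 reads in controls against 35, 29 and 24 in overexpressing cells (log2 fold change -0.29, adjusted p = 0.315). Neither was called, and the host genes KCNQ1 and KCNJ5 were not among the genes tested.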
